A study of Mus musculus with 6 samples.

Results

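Small nucleolar RNAs and small Cajal body RNAs were described in RNA sequencing libraries of mouse CD4 T cells. The members were all rows of the deposited table whose gene symbol, looked up from the Ensembl identifier, began with Snord, Snora or Scarna. There were 150 such rows among 54532 gene rows: 99 Snord, 42 Snora and 9 Scarna. The symbol prefix is the only criterion, and 3 symbols (Snord80, Snora43 and Snora16a) occur in 2 rows each. Another 1409 rows that the annotation classes as snoRNA or scaRNA carry other symbols, mostly of predicted genes, and 48 of them (3.41%) averaged at least 1 robust FPM. Robust FPM are sequenced fragments assigned to a gene, scaled per library by the authors.

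The study sequenced total RNA after removal of ribosomal RNA, from CD4 T cells of spleen and lymph nodes of C57BL/6 mice, in 6 libraries. The 3 WT libraries (replicates 1, 2 and 4) came from mice of genotype iCD4-PRMT5fl/fl, whose Prmt5 alleles are floxed, and the 3 KO libraries (replicates 1, 4 and 5) from mice of genotype iCD4-PRMT5 delta/delta. Both groups carry the same treatment label, anti-CD3/CD28 for 48 h, whereas the sample titles carry the word rest, so the state of activation is not settled by the labels and is shared by all 6 libraries. By a library code in the sample descriptions, WT 1, WT 2 and KO 1 belong to series 22, whereas WT 4 and both of the remaining KO libraries (KO 4, KO 5) belong to series 24. The labels do not say which cells or which promoter delete Prmt5. The sources used here give no age for the animals.

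Box C/D snoRNAs, named Snord, assemble with the proteins NOP56, NOP58, SNU13 and the methyltransferase fibrillarin and guide methylation of the ribose at matching sites of ribosomal RNA. Box H/ACA snoRNAs, named Snora, assemble with dyskerin, NOP10, NHP2 and GAR1 and guide the conversion of uridine to pseudouridine. Small Cajal body RNAs, named Scarna, carry either kind of box or both, collect in Cajal bodies and guide the same modifications of spliceosomal RNAs. Most mammalian members are cut out of introns of host genes, many of which encode ribosomal proteins or translation factors, and a few are transcribed from genes of their own. Some, such as the RNAs known as U3, U8, U13 and U17, serve in the processing of ribosomal RNA precursors.

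Most rows held the boxes that go with their prefix. All 150 rows had a transcript in GENCODE M21, and each was searched on its own strand for 3 short motifs. The C box was searched as TGATGA within the first 20 bases, the D box as CTGA within the last 20 bases, and the ACA box as ACA placed 3 bases before the end, so that the last windows overlap. The C box was found in 70 of 99 Snord rows, the D box in 97 of 99, and both in 68 of 99 (68.7%). The ACA box was found in 35 of 42 Snora rows (83.3%) and in 0 of 99 Snord rows, while in Snora rows a C box was found in 0 of 42 and a D box in 5 of 42 (11.9%). Snora17, one of the measured rows, held a D box and no ACA box at the searched place. Scarna rows held both C/D boxes in 4 of 9 cases and the ACA box in 2 of 9. Among all 1383 snRNA transcripts of the same annotation, both C/D boxes occurred in 0, a C box in 1, a D box in 55 (3.98%) and an ACA box in 13 (0.940%). A missing match says only that these letters are not in the window.

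Sequences of 9 rows that the results below turn on are given 5′ to 3′, from GENCODE M21 on GRCm38, with the C and D boxes or the ACA box in capitals. The first 3 C/D rows were at measurable levels.

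Snord17: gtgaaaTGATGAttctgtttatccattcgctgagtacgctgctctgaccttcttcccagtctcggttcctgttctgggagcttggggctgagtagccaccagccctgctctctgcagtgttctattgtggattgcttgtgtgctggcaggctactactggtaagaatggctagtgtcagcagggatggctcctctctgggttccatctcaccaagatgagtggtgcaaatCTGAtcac

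Snord104: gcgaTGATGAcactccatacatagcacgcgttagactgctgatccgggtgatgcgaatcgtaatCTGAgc

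Snord15a: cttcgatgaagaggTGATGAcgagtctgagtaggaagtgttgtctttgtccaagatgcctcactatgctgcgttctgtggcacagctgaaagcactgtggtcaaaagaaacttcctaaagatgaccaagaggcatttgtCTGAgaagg

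The next pair of C/D rows was listed at 0 in every library, and both lie wholly inside an annotated exon of another gene.

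Snord15b: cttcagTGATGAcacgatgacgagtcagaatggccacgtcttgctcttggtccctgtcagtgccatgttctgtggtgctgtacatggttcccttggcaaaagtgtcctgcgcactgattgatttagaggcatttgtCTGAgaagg

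Snord47: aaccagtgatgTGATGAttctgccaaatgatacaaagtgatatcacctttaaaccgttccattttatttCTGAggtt

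Of the H/ACA rows below, Snora73b, Snora23 and Scarna13 were at measurable levels. Snora73a, a near copy of Snora73b, was close to 0.

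Snora73b: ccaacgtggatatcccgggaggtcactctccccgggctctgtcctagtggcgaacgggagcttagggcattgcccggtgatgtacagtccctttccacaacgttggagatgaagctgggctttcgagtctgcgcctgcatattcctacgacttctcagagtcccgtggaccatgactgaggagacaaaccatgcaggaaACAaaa

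Snora73a: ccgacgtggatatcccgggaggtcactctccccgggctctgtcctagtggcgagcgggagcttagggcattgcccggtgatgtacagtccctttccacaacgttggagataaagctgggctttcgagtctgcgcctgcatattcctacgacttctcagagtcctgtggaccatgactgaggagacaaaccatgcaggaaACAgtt

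Snora23: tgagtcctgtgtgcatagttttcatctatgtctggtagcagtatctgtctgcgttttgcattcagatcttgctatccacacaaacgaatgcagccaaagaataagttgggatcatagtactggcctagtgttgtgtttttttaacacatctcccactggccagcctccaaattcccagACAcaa

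Scarna13: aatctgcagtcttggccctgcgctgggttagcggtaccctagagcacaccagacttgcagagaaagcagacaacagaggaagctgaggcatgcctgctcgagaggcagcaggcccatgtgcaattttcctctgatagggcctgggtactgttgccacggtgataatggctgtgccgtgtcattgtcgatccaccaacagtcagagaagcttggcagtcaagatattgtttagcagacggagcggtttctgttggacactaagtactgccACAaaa

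On GRCm38, Snord17 lies at chr2:144265979-144266216 on the minus strand in an intron of Snx5. Snord104 lies at chr11:106500993-106501062 on the plus strand outside other annotated genes. Snord15a (chr7:99482785-99482932) and Snord15b (chr7:99479563-99479707) both lie in Rps3 on the minus strand, the first in an intron and the second inside an annotated exon. Snord47 (chr1:161038082-161038158, plus strand) lies inside an exon of Gas5. Snora73b (chr4:132352322-132352526) lies in an intron of Rcc1, and Snora73a (chr4:132352775-132352979) overlaps an exon of Snhg3 over 77.6% of its length, both on the minus strand, and Snora73b also faces an exon of a gene on the opposite strand. Snora23 (chr7:110046364-110046547, plus strand) lies in an intron of Ipo7. Scarna13 (chr12:105031075-105031349, minus strand) lies in Snhg10, and 23.6% of it coincides with the microRNA gene Mir3069.

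Prmt5 was lower in each KO library (24.4, 23.8 and 21.5 FPM in KO 1, KO 4 and KO 5) than in any WT library (34.9, 41.0 and 43.9 FPM in WT 1, WT 2 and WT 4). WT 1 stood apart from the other libraries: the predicted gene Gm26870 took 84344 FPM there and 792.5 to 11910 FPM in the others, and olfactory and vomeronasal receptor genes summed to 0.30 FPM per kb against 0.0145 to 0.0838. Cd4 lay between 388.8 and 465.0 FPM, Cd3e between 112.8 and 140.8 FPM, Cd8a between 0.2 and 2.1 FPM and Csf1r between 50.3 and 227.9 FPM. Lyz2, like Csf1r a gene of myeloid cells, measured 19, 23.6 and 66.5 FPM in WT 1, WT 2 and KO 1 (series 22). In WT 4, KO 4 and KO 5 (series 24) it measured 204.2, 128.3 and 482.5 FPM. Adgre1, another myeloid gene, measured 26.4, 44.5 and 69.5 FPM in the former libraries and 98.5, 74.5 and 123.6 FPM in the latter. Any part of myeloid cells in the comparisons below was not tested. Sequencing depth is unknown, because the files hold scaled values rounded to 1 decimal.

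Measured members were a minority, and all classes had some. A row was called measured when its mean over the 6 libraries was at least 1 FPM, a level that 41 of 150 rows (27.3%) reached. A further 31 rows were above 0 with a lower mean, and 78 rows (52.0%) were listed at 0 in all 6 libraries. By class, 24 of 99 Snord rows (24.2%), 12 of 42 Snora rows (28.6%) and 5 of 9 Scarna rows (55.6%) were measured. The share of Snora rows was 1.18 times that of Snord rows, but 0.958 times at a mean of at least 0.5 FPM. Values above 0 in every library occurred in 17 of 42 Snora rows (40.5%) and 40 of 99 Snord rows (40.4%). Rows of a class are not replicates of a condition. Just above the threshold lay Snord87 (1.12 FPM), Snord65 (1.13 FPM) and Snord37 (1.15 FPM), and just below it Snord82 and Snord92 (both 0.833 FPM) and Snord110 (0.80 FPM). A value of exactly 0 need not mean absence: Rmrp, the RNA of the ribonuclease MRP, which takes part in ribosomal RNA processing, was listed at 0 in all 6 libraries as well, and Rpph1 was listed at 0 in 5 of 6.

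Annotated position went with being listed at 0. All 57 rows that lie wholly inside an exon of another gene on the same strand were listed at 0 in all 6 libraries, 37 Snord and 20 Snora. Of the 16 rows partly inside such an exon, 1 was measured (Scarna13), 12 were low and 3 were listed at 0 (Scarna10, Snora15 and Snord67). Of the 77 rows outside such exons, 40 (51.9%) were measured. In 41 of the 57 rows the covering exon belonged to a transcript annotated as a retained intron, and in 2 to a protein-coding transcript. For 1 row of Snora43 the covering exon is that of the second identifier of Snora43, which averaged 0.0333 FPM. The sources used here do not say how fragments lying in exons of more than 1 gene were counted, or if strand was used, and the part of counting in the zeros was not tested.

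**Figure D1:**
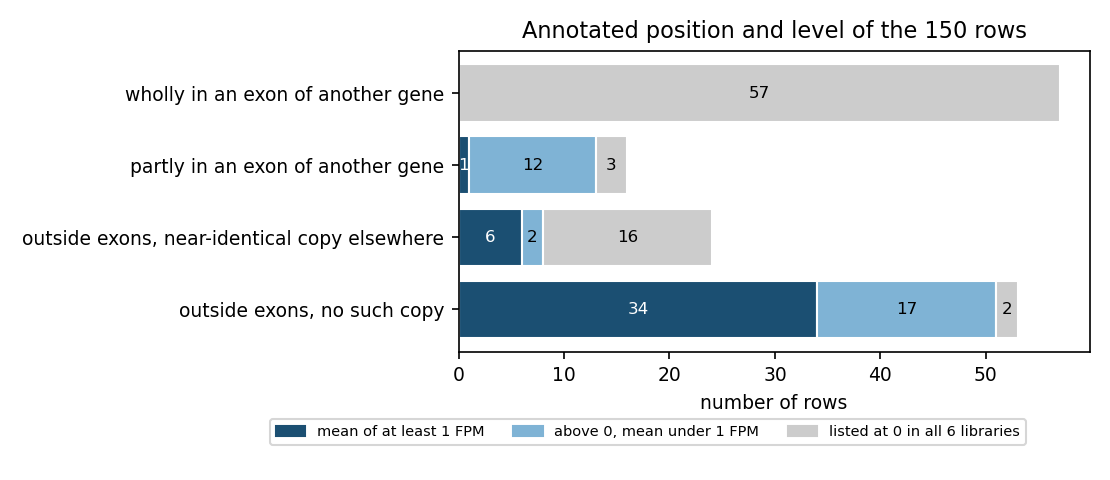
Number of rows (horizontal axis) by annotated position (vertical axis, 4 kinds), with colours for rows averaging at least 1 FPM, rows above 0 with a lower mean, and rows listed at 0 in all 6 libraries. The 57 rows wholly inside an exon of another gene are all listed at 0, and 34 of the 53 rows outside exons with no near-identical copy are measured.

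Short genes with other symbols showed the same contrast. Among annotated single-exon genes of at most 500 bases that are not members, 507 of 515 (98.4%) that lie wholly inside an exon of another gene were listed at 0, against 3233 of 10614 (30.5%) that lie in no such exon. Of these, 100 of the 515 and 1221 of the 10614 are annotated as snoRNA.

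The contrast can also be seen between neighbours within 1 host gene. All of these are member rows already counted by position above, so they are no separate support. Rows wholly inside an exon and rows wholly outside exons occurred together in 6 host genes, among them Ncl, Nop56, Rpl13a and Rps3. In these, 8 of 8 rows outside exons were above 0 and 0 of 6 rows wholly inside exons were. In Rcc1 and Rpl23a, rows only partly inside an exon (Snora73a, 0.433 FPM, and Snord42b, 0.35 FPM) were above 0 beside rows outside exons. Snord15a and Snord15b, forms of the RNA known as U15 at separate places in Rps3, averaged 9.07 FPM and 0 FPM. Their sequences, shown above, share 101 of 154 aligned positions (65.6%). In Nop56, whose protein is a core part of C/D particles, Snord110 averaged 0.80 FPM and Snord57 was listed at 0.

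Rows inside exons were listed at 0 also where the host gene was abundant. Gas5, a noncoding host gene, lay between 201.4 and 293.7 FPM, and its 4 rows (Snord47, Snord78 and 2 identifiers of Snord80) were listed at 0. Snhg12 averaged 37.2 FPM and its 5 rows were listed at 0. Snord14a in Rps13, Snord14e in Hspa8, Snord22 in Snhg1, Snora64 in Rps2 and Snora74a were listed at 0 as well. These include RNAs known for their part in small subunit processing, U14 and U22. Scarna10, known as U85 and a guide for the U5 spliceosomal RNA, was listed at 0, with 87.1% of it inside exons of other genes. Snord3a, Snord3b-ps1 and Snora63 are not analysed here.

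Rows with a near-identical copy elsewhere made up most of the remaining zeros. A copy means a transcript at another place that matches at 95% identity or more over at least 90% of the length. Of 24 rows outside exons with such a copy, 16 were listed at 0, and all 16 are numbered copies of Snord116l in introns of Snhg14, a cluster known for its expression in brain. Of 17 Snord116l rows the other 1, Snord116l10, averaged 0.0167 FPM. Snhg14 itself averaged 2.22 FPM. The 6 measured rows with a copy elsewhere were Snora73b, Snord118, Snora21, Snora57, Snora41 and Snora30, and their values are uncertain by what the copies took or gave. Of all 78 rows listed at 0, 76 (97.4%) overlapped an exon or had a copy, against 21 of 72 rows (29.2%) above 0. The 2 exceptions were Snora35, in an intron of the serotonin receptor gene Htr2c (0.90 FPM), and Snord123, in an intron of Snhg18 (0.05 FPM). Among 53 rows outside exons with no copy, 34 (64.2%) were measured and 17 were low.

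Snora73a and Snora73b show how closely copies can resemble each other. Both are forms of U17, an H/ACA RNA that serves in pre-ribosomal RNA processing rather than pseudouridylation. They share 198 of 205 bases (96.6%). With positions counted from 1 at the 5′ end and Snora73a as the reference, they differ by G3A, G54A, A111G, T164C, G203A, T204A and T205A. Snora73b averaged 279 FPM and Snora73a 0.433 FPM. How fragments that match both were divided is uncertain, so the share of each copy is not known from these values.

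Longer rows were measured more often than shorter ones, and H/ACA rows are the longer class. The median annotated length was 84 bases for Snord rows, 132.5 bases for Snora rows and 140 bases for Scarna rows. Outside exons, 19 of 51 rows under 100 bases were measured, 16 of 21 rows of 100 to under 150 bases, and 5 of 5 rows of at least 150 bases. Outside exons, 24 of 58 Snord rows (41.4%) and 12 of 14 Snora rows (85.7%) were measured, a share 2.07 times as high for Snora. The Snord rows, and the rows under 100 bases, include the 17 Snord116l copies, of which 0 were measured. Over rows outside exons with no near-identical copy, 23 of 39 Snord rows (59.0%) and 7 of 9 Snora rows (77.8%) were measured, a ratio of 1.32. Among rows of 100 to under 150 bases, the counts were 6 of 8 Snord rows and 10 of 12 Snora rows. No Snora row was shorter than 121 bases, and 17 of 49 Snord rows under 100 bases outside exons were measured. FPM are not divided by length, so at equal level per kb a longer row reaches 1 FPM more easily. The sources used here do not give the fragment sizes that the libraries retained. The part of either in these shares was not tested.

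**Figure D2:**
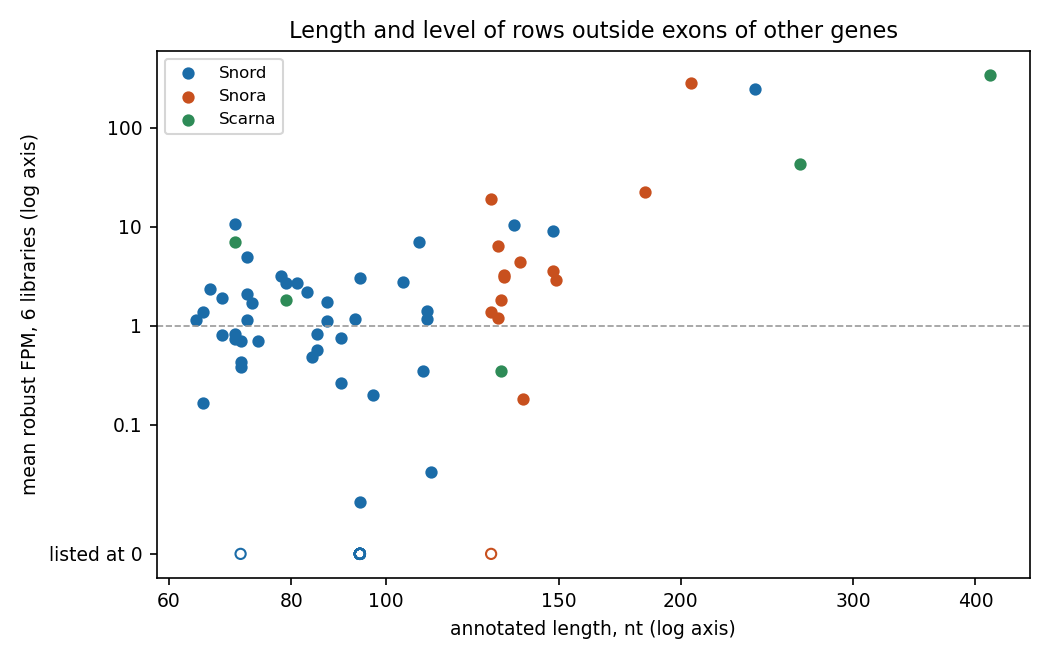
Mean robust FPM over 6 libraries (vertical log axis) against annotated length in bases (horizontal log axis) for the 77 rows outside exons of other genes, coloured by class. Open circles are rows listed at 0, 16 of which are Snord116l copies that coincide, and the dashed line marks 1 FPM. The 5 rows of at least 150 bases all lie above 20 FPM.

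Per unit of length, the measured rows of the C/D and H/ACA classes had similar middle levels, but all rows outside exons did not. The median over measured rows was 28.4 FPM per kb for 24 Snord rows (range 10.6 to 1031) and 24.2 FPM per kb for 12 Snora rows (range 9.23 to 1362). For the 5 Scarna rows it was 161 FPM per kb (range 22.8 to 824). The cutoff for measured rows is not divided by length, so it asks more per kb of shorter rows. Over all rows outside exons of other genes, medians were 9.63 FPM per kb for 58 Snord rows and 23.7 for 14 Snora rows. Those Snord rows include the 17 Snord116l copies, 16 of them listed at 0. The part of the cutoff in these medians was not tested. Snora73b had the highest level per length (1362 FPM per kb), followed by Snord17 (1031 FPM per kb), a C/D RNA, and Scarna2 (824 FPM per kb), a guide for the U2 spliceosomal RNA. Scarna13 reached 337 FPM per kb. Scarna6, Snord104, Snora78 and Snora23 lay between 121 and 161 FPM per kb.

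A few RNAs made up most of the members' fragments. Scarna2, Snora73b and Snord17 together took between 67.9% (WT 1) and 75.7% (KO 5) of the members' sum in a library. The members together took 0.0740% of all gene fragments in WT 1 and 0.125% to 0.168% in the other 5 libraries. Between 35 and 44 members reached 1 FPM in a single library. Sums per class were 232.6 to 426.3 FPM for Snord, 195.6 to 468.2 FPM for Snora and 277.6 to 645.0 FPM for Scarna. These sums and shares leave out the 1409 rows classed as snoRNA or scaRNA under other symbols. The means of those rows sum to 1978 FPM, beside 1168 FPM for the members, and the highest of them averaged 883 FPM.

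Scarna2 measured 171.3, 388.2 and 394.6 FPM in WT 1, WT 2 and WT 4, and 472.7, 299.3 and 320.6 FPM in KO 1, KO 4 and KO 5. Snora73b measured 148.2, 300.4 and 321.6 FPM in the WT libraries, and 369.7, 268.3 and 266.8 FPM in the KO libraries, in the same order. Snord17 measured 159.9, 246.9 and 273.9 FPM in WT, and 311.3, 258.2 and 222.4 FPM in KO. All 3 were lowest in WT 1 and highest in KO 1, both of series 22, and the groups overlapped.

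Scarna13, an H/ACA scaRNA known as U93, measured 74.8, 105.5 and 95.8 FPM in WT, and 106.9, 98.0 and 74.3 FPM in KO. Scarna6, known as U88, measured 24.8, 40.9 and 52.7 FPM in WT, and 53.5, 41.1 and 43.2 FPM in KO. Snora23 measured 15.4, 22.6 and 24.9 FPM in WT, and 27.9, 23.3 and 19.5 FPM in KO. The groups overlapped in each of these. WT 1 lay below every KO library and KO 1 above every WT library for Scarna6 and Snora23. Snora78, in an intron of Snhg9, varied most of all measured members: 3.4, 22.5 and 25.5 FPM in WT, and 31.8, 13.5 and 17.2 FPM in KO. Its SD over the 6 libraries was 1.09 on the log2 scale, and WT 1 was far below the other libraries.

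Among the RNAs with a role in ribosomal RNA processing, Snord118 (U8), needed for maturation of the large subunit RNAs, measured 7.8, 13.3 and 8.9 FPM in WT, and 18.5, 6.9 and 6.8 FPM in KO. Snord13 (U13) measured 2.4, 2.5 and 3.3 FPM in WT, and 4.4, 1.8 and 2.2 FPM in KO. Both were highest in KO 1, and the other KO libraries lay at or below the lowest WT library. Snora62, an H/ACA RNA in an intron of Rpsa, measured 3.7, 2.4 and 2.2 FPM in WT, and 3.8, 2.8 and 2.5 FPM in KO.

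Of the C/D guides at middle levels, Snord104 measured 8.0, 12.3 and 10.8 FPM in WT, and 14.0, 8.4 and 9.8 FPM in KO. Snord15a measured 7.0, 10 and 9.7 FPM in WT, and 12, 8.6 and 7.1 FPM in KO. Snord43, which the annotation classes as a microRNA and which lies in an intron of Rpl3, measured 6.9, 8.0 and 6.4 FPM in WT, and 11.5, 5.7 and 3.8 FPM in KO. KO 1 was the highest library for these 3 rows, and the groups overlapped. Snord49a, Snord53 and Snord83b averaged 4.98, 3.18 and 3.05 FPM. Of the H/ACA rows, Snora31 averaged 6.40 FPM, Snora21 4.42 FPM, Snora57 3.53 FPM, Snora17 3.23 FPM and Snora41 3.12 FPM. Scarna9, a guide for the U2 spliceosomal RNA in an intron of Cep295, averaged 7.02 FPM, and Scarna17 averaged 1.80 FPM.

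**Figure D3:**
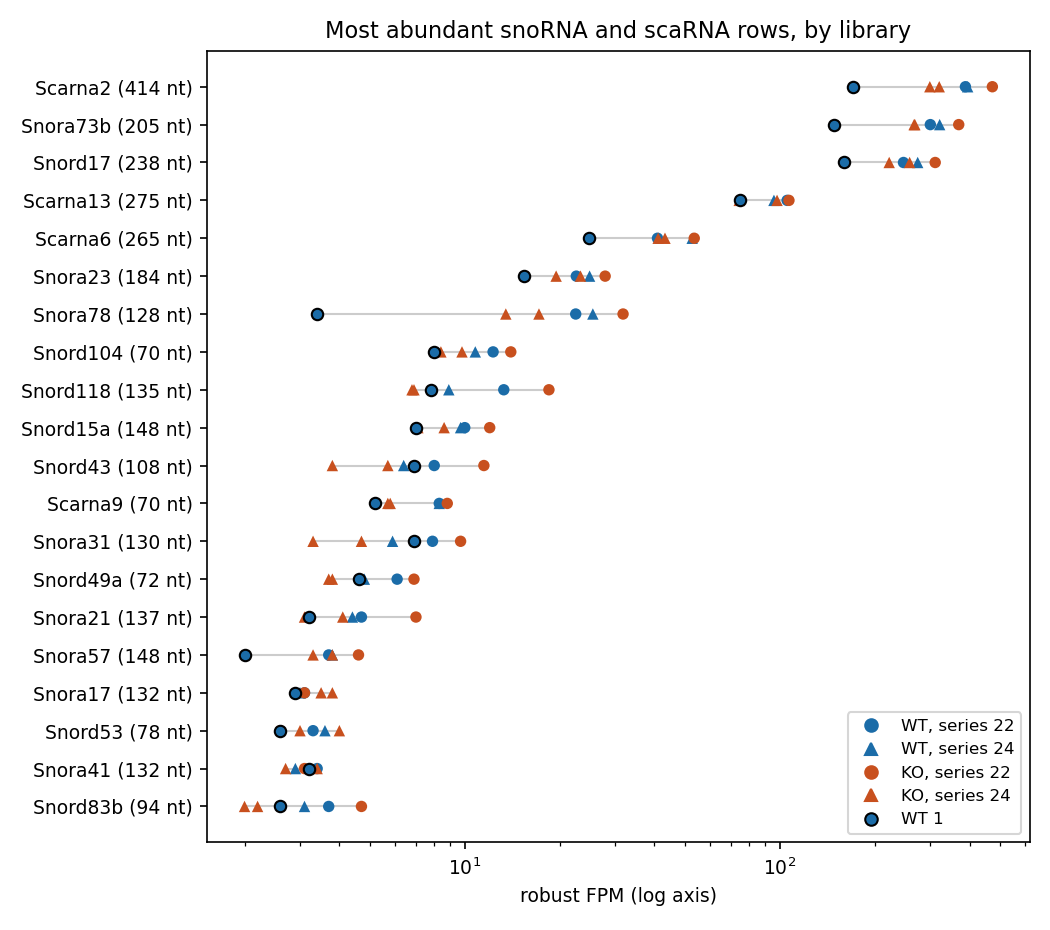
Robust FPM (horizontal log axis) in each of the 6 libraries for the 20 members of highest mean, with annotated length in brackets. Circles are series 22, triangles series 24, blue WT and orange KO, and WT 1 has a black outline. WT 1 is the lowest library in 12 of the 20 rows and KO 1 the highest in 17.

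The steadiest members were of low level. The log2 SD over the 6 libraries was 0.11 for Snora41 (2.7 to 3.4 FPM), 0.13 for Snora17 (2.9 to 3.8 FPM) and 0.14 for Snord70 (1.4 to 2.0 FPM). After Snora78, the most variable were Snord32a (0.58), Snord118 (0.56), Scarna2 (0.51) and Snora31 (0.51). Snord32a measured 0.9, 1.2 and 3.3 FPM in WT, and 2.3, 2.9 and 2.5 FPM in KO. The median SD was 0.30 over the 41 measured members and 0.20 over all 14944 genes with a mean of at least 1 FPM. The sets were not matched for level: 13 of the 41 members and 10319 of the 14944 genes averaged at least 5 FPM. All these SDs are of log2(FPM + 0.5), and the added 0.5 lowers the SD of low rows.

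KO 1 was the highest library for 26 of the 41 measured members (63.4%), and for 20.4% of all genes tested. WT 1 was the lowest library for 19 of 41 (46.3%), close to the 46.0% among all genes tested. The median deviation of the members from their own row means, on the log2 scale, was -0.23 in WT 1, 0.10 in WT 2, 0.10 in WT 4, 0.32 in KO 1, -0.09 in KO 4 and -0.08 in KO 5. Over all genes tested it ran from -0.12 in WT 1 to 0.09 in WT 4. In Scarna rows the deviation of WT 1 was -0.68. The spike-in RNAs took 0.752% of the column in WT 1, 1.01% in KO 1 and between 0.841% and 1.59% in the other libraries.

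Measured members ranged from far above to far below their host genes in level per kb. Of the 41 measured rows 34 lie in a host gene, and 14 of these had more FPM per kb than the host. Where several genes spanned a row, a protein-coding gene was taken as host before others, and then the gene of highest level. The ratios depend on this choice. Snora73b had 248 times the level per kb of Rcc1, Scarna13 162 times that of Snhg10 and Snora78 37.0 times that of Snhg9. Snhg10 averaged only 1.1 FPM and Snhg9 0.733 FPM, so with values rounded to 1 decimal these 2 ratios are uncertain. Snord17 had 19.9 times the level per kb of Snx5, Scarna6 13.7 times that of Atg16l1 and Scarna9 11.9 times that of Cep295. Rows in hosts that encode ribosomal proteins lay on both sides. Snord32a had 2.36 times the level per kb of Rpl13a, whereas Snord73a had 0.0152 times the level per kb of Rps3a1, Snora62 0.0258 times that of Rpsa and Snord15a 0.177 times that of Rps3. The 7 rows outside any other annotated gene were all measured: Scarna2, Snord104, Snord118, Snora57, Snora17, Snord13 and Scarna17. A gene-level value does not tell the mature RNA from unspliced host RNA that contains it.

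No measured member passed the test between KO and WT. With limma on log2(FPM + 0.5) and library series as a term, 0 of 41 members and 0 of 14944 genes (0%) had an adjusted p below 0.05, and the adjusted p of every member was 1. At an unadjusted p under 0.05 there were 0 members and 37 genes (0.248%). The 95% interval of the change in FPM + 0.5 lay within 2-fold in either direction for 34 of 41 members, so smaller changes were not resolved. For low rows the added 0.5 shrinks changes, so for them this does not bound the change in FPM itself to 2-fold. In bulk samples, fewer cells of a type and less RNA per cell cannot be told apart. The p-values rest on the spread between libraries that remains after the terms for genotype and series, moderated over all genes. A KO difference that changes between series adds to this spread. The series' design text calls the 3 samples a group biological replicates.

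Members lay slightly above 0 on balance, with a median log2 difference (KO minus WT) of 0.10, 28 of 41 positive and 13 negative, beside 0.01 over all genes tested. The classes had medians of 0.09 (24 Snord), 0.16 (12 Snora) and 0.10 (5 Scarna). The sign differed between the library series: series 22 alone gave a median of 0.39, and series 24 alone -0.27, beside 0.12 and -0.08 over all genes. A positive difference within series 22 together with a negative one within series 24 occurred in 30 of 41 members (73.2%) and in 54.3% of all genes tested. KO 1 is the only KO library of series 22 and WT 4 the only WT library of series 24, so that a dependence on the series and a dependence on these single libraries cannot be told apart. Without KO 1 or WT 4 the fit returns the other series' difference. Without WT 1 the members' median was -0.04. With scaling to the spike-in RNAs it was -0.11, beside -0.20 over all genes.

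**Figure D4:**
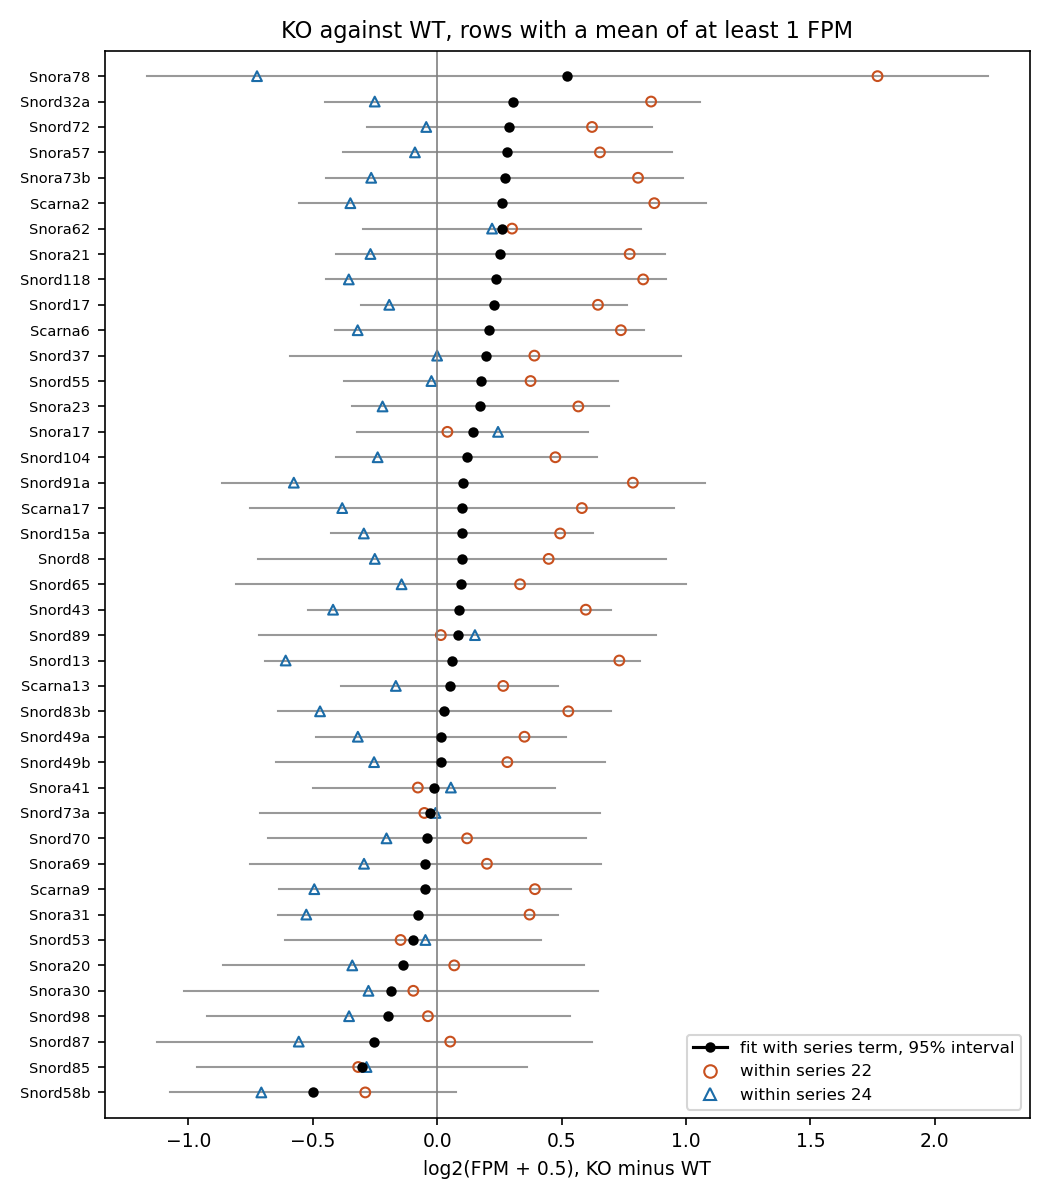
Log2 difference in FPM + 0.5, KO minus WT (horizontal axis), for the 41 measured members (vertical axis, ordered by the estimate). Black points and lines are the limma estimate with library series as a term and its 95% interval; open circles and triangles are the differences within series 22 and series 24. All 41 intervals include 0, and most circles lie to the right of their triangles.

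By size, the differences were small against their errors. Snora78 had the largest estimate, 0.52 (SE 0.730), with 1.77 within series 22 and -0.72 within series 24. Among rows with positive estimates and the smallest p-values were Snord72 (0.29, SE 0.247), Snora62 (0.26, SE 0.241), Snora57 (0.28, SE 0.286), Snord17 (0.23, SE 0.231) and Snord32a (0.30, SE 0.325). Scarna2 had 0.26 (SE 0.353) and Snora73b 0.27 (SE 0.310), both negative without WT 1 or without KO 1.

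Values of KO and WT did not overlap for 2 of 41 members, both lower in KO, beside 2.88% of all genes tested. Snord58b, in an intron of Rpl17, measured 2.9, 2.7 and 3.0 FPM in WT, and 2.2, 1.5 and 1.8 FPM in KO. Its estimate was -0.50 (SE 0.248, 95% interval -1.07 to 0.08), and it was negative in both series (-0.29 and -0.71). Snord85 measured 1.8, 2.2 and 1.8 FPM in WT, and 1.5, 1.2 and 1.6 FPM in KO, with an estimate of -0.30 (SE 0.286). Both rows are low, and values rounded to 1 decimal are coarse there. Snord87 (-0.25), Snord98 (-0.20) and Snora30 (-0.19) followed. None of these passed the test.

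Between library series, 0 of 41 members were called, beside 21 of 14944 genes (0.141%), by limma with genotype as a term. At an unadjusted p under 0.05 there were 3 of 41 members, near the 8.81% of all genes tested. All 3 were lower in series 24, namely Snora31 (-0.75, SE 0.243), Snord43 (-0.71, SE 0.262) and Snord118 (-0.78, SE 0.295), with a smallest limma adjusted p of 0.444. Values in series 24 lay below all values in series 22 for 3 of 41 members (Snord43, Snora31 and Snora20), beside 6.14% of all genes tested. They lay above all values in series 22 for 2 of 41 members (Snord32a and Snord89), beside 14.3% of all genes tested. Snora31, in an intron of Tpt1, measured 6.9, 7.9 and 9.7 FPM in WT 1, WT 2 and KO 1, and 5.9, 3.3 and 4.7 FPM in WT 4, KO 4 and KO 5. Among estimates in the other direction were Snord32a (0.75, SE 0.325), Snord89 (0.45, SE 0.345) and Snord53 (0.31, SE 0.223). The median over members was -0.10, beside 0.06 over all genes. A test of whether the KO difference itself changed between series, added after the data had been seen, called 0 members and 0 genes. At an unadjusted p under 0.05 it gave 3 members (Scarna6, Snord118 and Snord13, limma adjusted p = 0.678) and 369 genes (2.47%).

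Genes for the proteins that bind these RNAs were measured in all libraries and 0 were called between KO and WT. Of the C/D core proteins 4 were tested, with differences of 0.06 for Fbl (fibrillarin), 0.13 for Nop56, 0.01 for Nop58 and 0.08 for Snu13. The 4 H/ACA core genes had 0.05 for Dkc1 (dyskerin), 0.13 for Nop10, 0.05 for Nhp2 and 0.03 for Gar1. Among 13 assembly factors the median was 0.05, and the members of smallest p were Znhit6 (-0.24, SE 0.155) and Ruvbl1 (0.14, SE 0.133). Among 11 Cajal body genes the median was 0.02. Wrap53, whose protein carries scaRNAs to Cajal bodies, had 0.21 (SE 0.144), Ell had 0.11 and Coil, which encodes the scaffold protein coilin, had -0.06. KO 1 was the highest library for all 4 C/D core genes and 3 of 4 H/ACA core genes, beside 20.4% of all genes tested. It was also the highest for 7 of 13 assembly factors and 2 of 11 Cajal body genes.

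Of 20 host genes without a main protein product, 17 were found and 14 tested, with a median of 0.06 and 0 called. Gas5 had 0.06, Snhg1 0.06, Snhg5 0.06, Snhg6 0.08, Snhg8 0.03, Snhg12 0.12 and Zfas1 0.14. Snhg20 (0.25, SE 0.205) and Snhg3 (-0.15, SE 0.132) had the smallest p-values. Between series, Snhg1 had -0.67 (SE 0.149, limma adjusted p = 0.247) while its row Snord22 stayed listed at 0.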

How the data were processed

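Total RNA was depleted of ribosomal RNA with a Ribo-Zero Gold kit and made into TruSeq stranded libraries, per the labels' protocols. STAR and featureCounts are named, along with DESeq and DESeq2, per the submitters' processing notes, which give no role for them, and so is the build GRCm38.p3. The deposited values are robust FPM, an RPM-type unit scaled by the authors, rounded to 1 decimal. They are not counts, and the depth is unknown. A further 6 columns could not be matched to a sample by name and were not used. Members and gene lists were chosen with earlier results of these data known.

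Symbols, positions, lengths and sequences came from GENCODE M21 (GRCm38), which held a model for 150 of 150 members and 54495 of 54532 gene rows; the sources used here do not give the release behind the deposited table. Exon overlap was taken on the same strand, and copies were searched with blastn 2.17.0. Genes with a mean of at least 1 FPM (14944) were fitted as log2(FPM + 0.5), a scale that understates changes of low genes, with limma 3.58.1 in R 4.3.3, terms for genotype and library series, and a mean-variance trend; its moderated test is two-sided, adjusted by Benjamini-Hochberg over all genes. The 92 spike-in rows were left out. The script was tested on simulated data. Named members are those fixed by name for their known roles, the 8 Snord, 8 Snora and 4 Scarna rows of highest mean, those of smallest p in each comparison, and the most and least variable; host and neighbour rows were named after their values were seen. Alternatives changed the pseudocount (0.1 and 1), the filter, the scaling, the terms of the model and the set of libraries. Figures were drawn with matplotlib 3.10.9. Some genes are not reported here.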

Additional observations from a re-analysis of the deposited data

How the results depend on the processing

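No member was called between KO and WT under any of the 14 alternatives run, nor between series where the series term was fitted. The members' median difference of 0.10 became -0.11 with scaling to the spike-in RNAs (-0.20 over all genes) and ranged from -0.27 to 0.39 when each library was left out, where leaving out KO 1 or WT 4 leaves only the other series' difference. The 41 measured rows became 13 at a mean of at least 5 FPM and 63 when a value above 0 in every library was asked for, and the ratio of Snora to Snord shares (1.18) became 0.958 at a mean of at least 0.5 FPM, 1.002 for a value above 0 in every library and 1.89 at a mean of at least 5 FPM. Over rows outside exons it was 2.07, and over those with no copy 1.32, both added after the data had been seen. Among named rows the sign turned with spike-in scaling for Snord13 (-0.13), Scarna6 (-0.0076), Scarna13 (-0.17), Scarna17 (-0.066), Snord104 (-0.090), Snord15a (-0.11), Snord43 (-0.11), Snord49a (-0.18), Snord83b (-0.16), Snora23 (-0.041), Snora17 (-0.053) and Snord89 (-0.11). Without the series term it turned for Snord13 (-0.040), Snord118 (-0.023), Snord43 (-0.15), Snord49a (-0.14), Snord53 (0.0052) and Snord83b (-0.14). When each library was left out in turn, the sign turned within these ranges: Scarna13 -0.17 to 0.27, Scarna17 -0.38 to 0.58, Scarna2 -0.35 to 0.87, Scarna6 -0.32 to 0.74, Scarna9 -0.49 to 0.39, Snora21 -0.27 to 0.77, Snora23 -0.22 to 0.57, Snora31 -0.53 to 0.37, Snora41 -0.082 to 0.055, Snora57 -0.089 to 0.65, Snora73b -0.27 to 0.81, Snora78 -0.72 to 1.77, Snord104 -0.24 to 0.48, Snord118 -0.35 to 0.83, Snord13 -0.61 to 0.73, Snord15a -0.29 to 0.49, Snord17 -0.19 to 0.65, Snord32a -0.25 to 0.86, Snord43 -0.42 to 0.60, Snord49a -0.32 to 0.35, Snord70 -0.20 to 0.12, Snord72 -0.044 to 0.62, Snord83b -0.47 to 0.53, Snord87 -0.56 to 0.053. The cause was not tested. Rounding to 1 decimal limits rows near 1 FPM most.

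The replicate numbers were also used as a block in place of the series term, and only numbers 1 and 4 occur in both groups. With this block 5 genes were called (1 higher, 4 lower) and 0 members (smallest limma adjusted p 0.0728), the members' median was 0.21, and the sign turned for Scarna9 (0.11), Snora41 (0.079) and Snord89 (-0.020). Deviations from the group means correlated at -0.16 between WT 1 and KO 1 and at -0.41 between WT 4 and KO 4. Such deviations sum to 0 within a group of 3, so these correlations depend on each other. They cannot tell if samples of equal number were paired.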
